A study of Oryza sativa with 18 samples.

Results

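R-loop regions with a peak at the largest amount of input DNA and none at the next lower amounts were examined in rice (Oryza sativa). The comparison sets the 2 libraries made from 8 µg of fragmented genomic DNA against the 2 made from 5 µg and the 2 made from 3 µg, which are 6 of the 18 libraries in the series. A region was called 8 µg-only if it had a peak in both 8 µg libraries and in none of the other 4, and 2473 of the 80674 regions in the 6 peak lists met this rule. All 6 libraries are labelled as wild-type seedlings with no treatment, and only the titles tell the amounts apart. The assay, ISRH-seq, treats sonicated DNA with RNase H and DNA polymerase I so that the RNA strand of a hybrid is replaced by biotin-labelled DNA, which is captured and sequenced. Nothing in the labels says whether replicates came from separate plants, so the spread between replicates may be technical.

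An R-loop is a structure of 3 nucleic acid strands, in which RNA pairs with its DNA template and leaves the other DNA strand unpaired. R-loops form mostly during transcription, and RNase H removes them by cutting the RNA of the hybrid. In plants they have been mapped widely at genes, near starts and ends of transcription, and in some repeats. The lists name no genes, and no source used here gives their genome build, so each region is given by the chromosome and position in the lists, counted from 1.

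The 8 µg lists were longer than the others and came from deeper libraries. They held 70518 and 65955 peaks, whereas the lists of 5 and 3 µg held 48308 to 58704. Background coverage, taken as the most frequent local background among the summits of a list, was solved from the deposited folds and p-values and serves as a measure of depth. It was 11.4 and 12.7 in the 8 µg libraries and 5.07 to 7.09 in the other 4. The peak names also differ, with "uniq" in those of the 4 lists of 5 and 3 µg, "single" in one 8 µg list (replicate 1) and "merge" in the other, words that the labels do not explain. Amount, depth and naming thus divide the 6 libraries in the same way, and their parts in the results below cannot be told apart. The median width over all peaks of a list was 433.5 ± 3.54 bp at 8 µg (SD, n = 2) and 395 ± 14.3 bp at 5 and 3 µg (SD, n = 4). The peaks covered 35.7 ± 1.39 Mb and 25.1 ± 3.54 Mb, respectively. In peak number, width and covered length every 8 µg library lay above the other 4, with a two-sided exact permutation p of 0.133 for each (adjusted p = 0.133 over 5 values). No lower p can be reached with 2 libraries against 4.

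Most of what the 8 µg libraries held was also found at 5 and 3 µg. Of the 56867 regions with a peak in both 8 µg libraries, 36144 had a peak in all 4 others, 18250 in 1 to 3 of them and 2473 in none. The 8 µg-only regions made up 3.07% of the union of the 6 lists. The same rule applied to the other amounts gave 35 regions in both 5 µg libraries only and 50 in both 3 µg libraries only. The reverse pattern, a peak in all 4 libraries of 5 and 3 µg and in neither 8 µg library, was found at 8 regions. A larger number, 10651 regions, had a peak in 1 of the 8 µg libraries and nowhere else among the 6, with 6184 of them in replicate 1 and 4467 in replicate 2. Regions private to 1 of the 8 µg libraries, counted over both, thus outnumbered the 2473 that both held and the other 4 lists lacked.

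**Figure D1:**
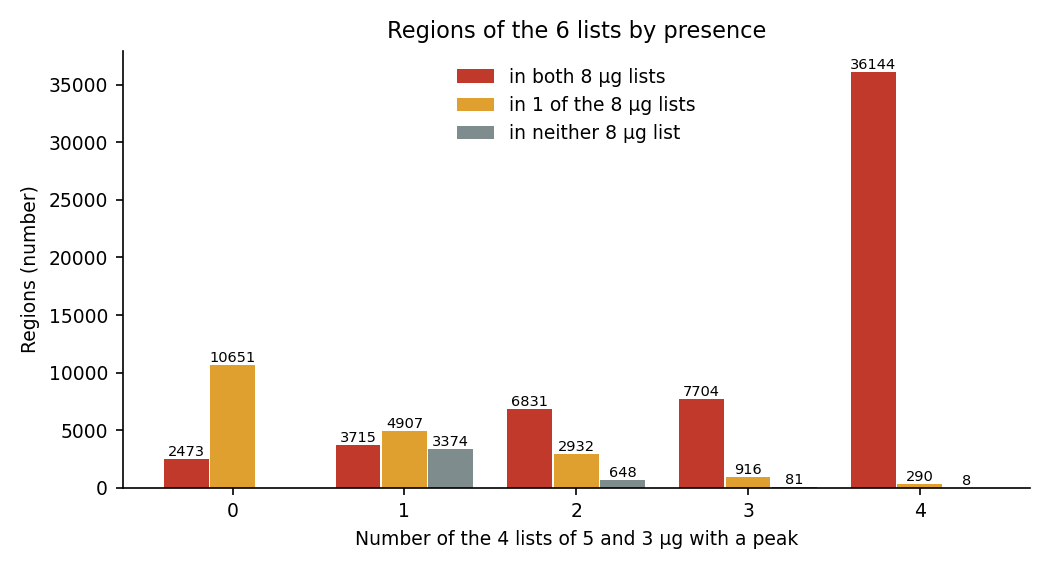
Number of regions (y axis) by how many of the 4 lists of 5 and 3 µg held a peak (x axis), with bars for regions in both, in 1 or in neither of the 8 µg lists. The 2473 regions at 0 in the first bar are the 8 µg-only regions, and the 36144 at 4 are the regions shared by all 6 lists.

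The count depended on how the lists were made comparable. With the same number of best-scored peaks, 48308, taken from each list, 388 regions were 8 µg-only. Removing regions within 1 kb of any peak of the other 4 lists left 1517. Fewer libraries have to agree when 1 is left out, and the count was then 7050 without 8 µg replicate 1, 8796 without 8 µg replicate 2, 3932 without 5 µg replicate 2 and 3943 without 3 µg replicate 2, against 2856 and 2904 without replicate 1 of 5 µg and of 3 µg.

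The 8 µg-only regions were narrow. Their median width was 249 bp in 8 µg replicate 1 and 283 bp in replicate 2 (269 bp over the pooled widths of both), with quartiles of 220 to 317 bp and 249 to 346 bp. In these libraries, the regions shared by all 6 lists had median widths of 630 and 603 bp, and the regions shared with 1 to 3 of the other lists had 331 and 340 bp. The smallest peak that a list held was 197 bp in replicate 1 and 226 bp in replicate 2, and 48.8% and 45.7% of the 8 µg-only regions lay within 50 bp of that minimum. Among regions of all 6 lists these shares were 1.23% and 2.04%. The 8 µg-only regions were single peaks in nearly every case (2468 and 2470 of 2473). The peaks of both libraries coincided over a median of 229 bp, or 76.2% of the joint span, and 343 regions (13.9%) had less than 50% of their span in common. Together the regions spanned 0.906 Mb.

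**Figure D2:**
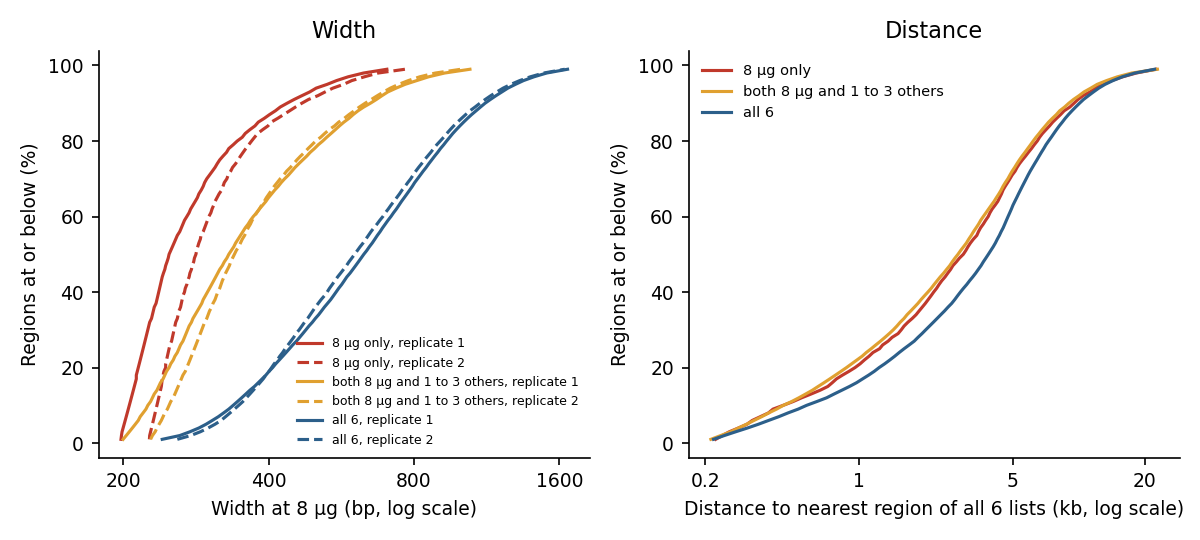
Cumulative share of regions (y axes, percent) by width in each 8 µg library (left, bp, log scale) and by distance to the nearest region of all 6 lists (right, kb, log scale). Red marks 8 µg-only regions, yellow those also in 1 to 3 other lists and blue those in all 6, and the median width rises in that order from 249 to 630 bp in replicate 1 while the distance curves run close together.

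Wide 8 µg-only regions were few. Only 58 (2.35%) were wider than 500 bp in both libraries. The widest by the smaller of its 2 widths lay on chromosome 2 from 16047563 to 16048624, with 782 and 908 bp in replicates 1 and 2. The next was also on chromosome 2, from 31261700 to 31262994, with 747 and 1295 bp. It was followed by chromosome 4 from 6091052 to 6091833, with 758 and 728 bp. Of the 10 widest, 9 had a peak in at least 1 of the 11 other input, salt and CK(salt) libraries that the rule did not use. Their scores were not high, since the lower of the 2 score percentiles within the 8 µg lists ran from 0.576 to 42.7 in these 10.

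By the authors' peak scores the 8 µg-only regions stood low but not at the bottom of the 8 µg lists. Their median percentile by −log10 q within the list was 16.1 in each library, compared with 73.7 and 72.1 for the regions of all 6 lists. They were below the 10th percentile in 31.7% and 32.5% of cases and above the 50th in 52 and 46 cases. The median deposited fold over local background was 3.05 and 3.20, against 6.16 and 6.84 in the regions of all 6 lists. A few strong peaks were among them. The best scored region by the lower of its 2 percentiles (86.1 and 69.1) spanned 33248022 to 33248393 on chromosome 3. Its folds were 6.90 and 5.94 and its widths 311 and 371 bp. It lay 326 bp from a region shared by all 6 lists. The second spanned 28277441 to 28277734 on chromosome 1. Its folds were 4.83 and 4.63, and there was no peak of the other 4 lists within 4126 bp. The third spanned 22727763 to 22728032 on chromosome 2. Its folds were 5.79 and 5.66, and it lay 394 bp from a shared region. The fourth spanned 9456856 to 9457138 on chromosome 6. Its folds were 5.38 and 6.48, at 4817 bp from the nearest peak of the other lists.

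The summits of these peaks were also scaled to lower depth. The pileup and local background of each summit were scaled down to the background coverage of a 5 or 3 µg library, and the resulting −log10 p was held against the lowest value in that library's list. Scaled to the deepest of the 4, 5 µg replicate 2, 2319 of the 2473 regions (93.8%) kept a passing summit in both 8 µg libraries. Of all peaks in the 8 µg lists, 98.9% and 99.0% passed at that depth. Scaled to the shallowest, 5 µg replicate 1, 1936 regions (78.3%) did, against 95.7% and 96.3% of all 8 µg peaks. The 8 µg-only regions thus lost their summit more often than the peaks of these lists in general, though they had to pass in both libraries and single peaks in 1. Those that passed at the shallowest depth were narrower than those that did not, with median widths of 244 and 278 bp against 284 and 301 bp. The scaling uses the summit only and leaves the width of each peak as it was, so the minimum width that each list imposes was not scaled with depth. It left the 8 µg lists longer than the 58178 and 48672 peaks that both target libraries held, so it does not measure how far depth sets the number of 8 µg-only regions.

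8 µg-only regions were spread over the genome much as the other regions of the 8 µg libraries. All 12 chromosomes held them, from 137 on each of chromosomes 9 and 10 to 310 on chromosome 1. As a share of the regions of both 8 µg libraries, they were 4.35% in the genome (95% exact Clopper-Pearson interval 4.18 to 4.52%). The share was highest on chromosome 11 at 5.05% (4.39 to 5.78%) and next on chromosome 7 at 4.88% (4.26 to 5.55%), and it was lowest on chromosome 10 at 3.94% (3.31 to 4.64%). The intervals of 11 chromosomes held the genome-wide value, with chromosome 11 as the exception by a small margin. Such intervals cover counting error only, and no test between chromosomes was made. Per Mb of the span between the first and last region, 8 µg-only regions numbered from 5.67 on chromosome 12 to 7.96 on chromosome 3, which are also the chromosomes with the fewest and the most regions of all 6 lists per Mb (83.5 and 112).

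**Figure D3:**
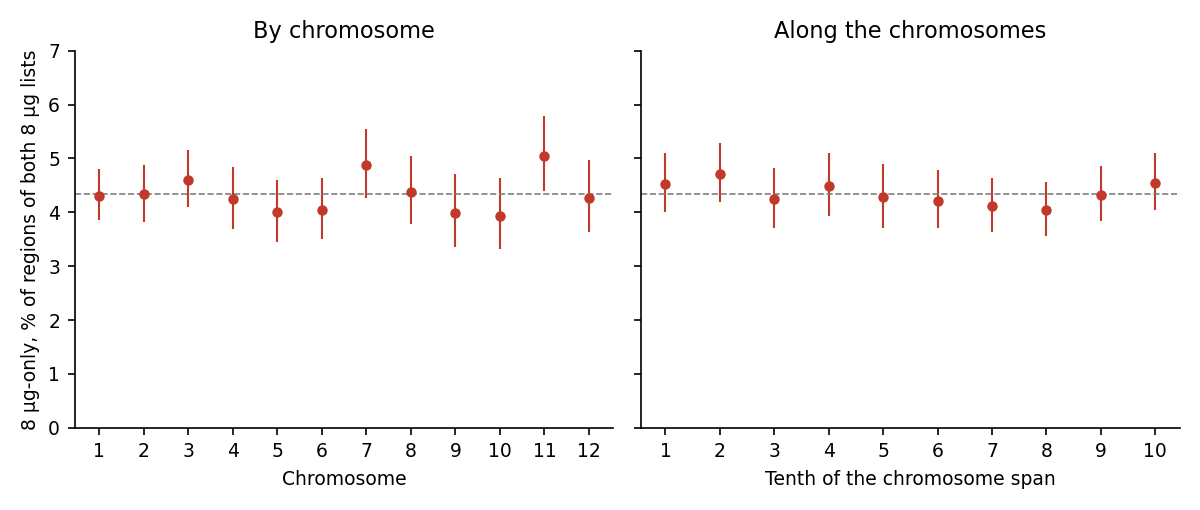
Share of 8 µg-only regions among the regions of both 8 µg lists (y axis, percent) for each chromosome (left) and each of 10 equal parts of the chromosome spans (right), with 95% exact intervals and a dashed line at the genome-wide 4.35%. Chromosome 11, at 5.05%, is the one interval that leaves the line out.

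Over broad parts of the chromosomes the share was even as well, while single windows of 1 Mb, with fewer regions each, had a wider range. With each chromosome's span cut into 10 equal parts and the parts added over the 12 chromosomes, it ran from 4.04% to 4.71%, and every interval held the genome-wide value. In windows of 1 Mb with at least 50 regions of both 8 µg libraries, 374 of 376 held at least 1 8 µg-only region, with a median of 6 per window. The share was highest, at 10.5%, in the last window of chromosome 1 from 43000001 to 44000000, where 6 of 57 regions were 8 µg-only. Its exact interval, 3.96 to 21.5%, held the genome-wide share. The share was 9.20% on chromosome 11 from 7000001 to 8000000 (15 of 163) and 8.89% in the first window of chromosome 3, from 1 to 1000000 (16 of 180). At the low end, 0 of 145 regions were 8 µg-only on chromosome 1 from 15000001 to 16000000 (exact upper bound 2.51%) and 1 of 159 (0.629%, upper bound 3.45%) on chromosome 6 from 25000001 to 26000000. The interval lay above the genome-wide share in 7 of the 376 windows and below it in 6. With so many intervals at the 95% level, a few can leave that share out through counting error alone. The windows named are the ends of a ranking and no test between windows was made, so they are not shown to be local highs or lows.

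The 8 µg-only regions lay nearer to the regions shared by all 6 lists than these lay to one another. Regions also in 1 to 3 other lists did so too, as did those of 8 µg replicate 1 alone (median 2652 bp) and replicate 2 alone (2939 bp). The closeness is thus not particular to the 8 µg-only regions. No distance expected for positions outside the shared regions was worked out. The median distance from an 8 µg-only region to the nearest shared region, edge to edge, was 2986 bp (quartiles 1242 and 5547 bp). A total of 272 regions (11%) lay within 500 bp of a shared region, 513 (20.7%) within 1 kb, 1761 (71.2%) within 5 kb and 2256 (91.2%) within 10 kb. Regions of both 8 µg libraries that were also in 1 to 3 other lists had a median of 2824 bp, with 22.4% within 1 kb. Shared regions themselves were 3882 bp from the next shared region in the median, with 16.4% within 1 kb. The nearest peak of any kind in the other 4 lists was closer, at a median of 1416 bp, and 956 regions (38.7%) had one within 1 kb. From one 8 µg-only region to the next the median was 47684 bp, and 44 of the 2473 (1.78%) had another within 1 kb. That distance depends on how few the regions are, and no spacing expected from their number was worked out.

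Some 8 µg-only regions lay in wide stretches without a shared region. The farthest was on chromosome 4 from 9039648 to 9039893, at 83.3 kb from the nearest shared region, with folds of 4.66 and 4.37. It had a peak in 7 of the 11 other input, salt and CK(salt) libraries. The region on chromosome 12 from 15572155 to 15572492 followed at 64.0 kb and that on chromosome 12 from 24318665 to 24319015 at 59.5 kb, and both had a peak in 0 of the 11. The region spanning 3861188 to 3861482 on chromosome 6 (folds 5.06 and 5.68) was among the 10 best scored and the 10 farthest, and no peak of any of the other 4 lists lay within 37.8 kb of it. Where a shared region was within 1 kb, such neighbours were somewhat narrower than shared regions in general in each library of the comparison. Their median score percentiles at 8 µg were also lower, at 68.7 and 67.2 against 73.7 and 72.1. The 511 such neighbours had median widths of 590 and 567 bp at 8 µg and 423 to 512 bp in the other 4 lists, and all shared regions had 630 and 603 bp and 459 to 545 bp.

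Libraries outside the comparison held part of the 8 µg-only regions. Of the 2473, 1420 (57.4%) had a peak in at least 1 of 11 libraries that the rule did not use (1 µg to 100 ng, salt and CK(salt)), 99 (4.0%) had one in at least 6, and 1053 in none. The regions also found in 1 to 3 lists of 5 and 3 µg had a peak in at least 1 of the 11 in 91.2% of cases, and those of all 6 lists in 99.9%. CK(salt) replicate 1, the deepest of the 11 with a background coverage of 8.6, held the largest share, 25.6% (exact interval 23.9 to 27.4%). Its peak names carry the word merge, as do those of 8 µg replicate 2. At 1 µg the replicates held 15.7% and 13.7%, at 500 ng 10.6% and 13.8%, and at 250 ng 12.8% and 13.7%. The salt libraries held 6.55% and 9.75%, CK(salt) replicate 2 held 8.69% and the 100 ng library, the shallowest at 0.88, held 0.728%. The share found in at least 1 of the 11 was 50.1% among the 619 8 µg-only regions with the lowest scores and 65.7% among the 618 with the highest.

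In the library titled RNaseH, which held 123 peaks at a background coverage of 3.1, 0 of the 2473 8 µg-only regions had a peak. A count of 0 allows a share of up to 0.121%, taken as 3 counts of the 2473, and the exact 95% interval reaches 0.149%. Both cover counting error alone. Regions of the 8 µg libraries with 1 to 3 other lists had such a peak in 13 of 18250 cases (0.0712%), and regions of all 6 lists in 80 of 36144 (0.221%). With 123 peaks in the RNaseH list the share was low in each of these classes, so the 0 does not set the 8 µg-only regions apart. Of the 12 libraries outside the comparison, all but the RNaseH and 100 ng libraries held at least 6.55% of the 8 µg-only regions.

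**Figure D4:**
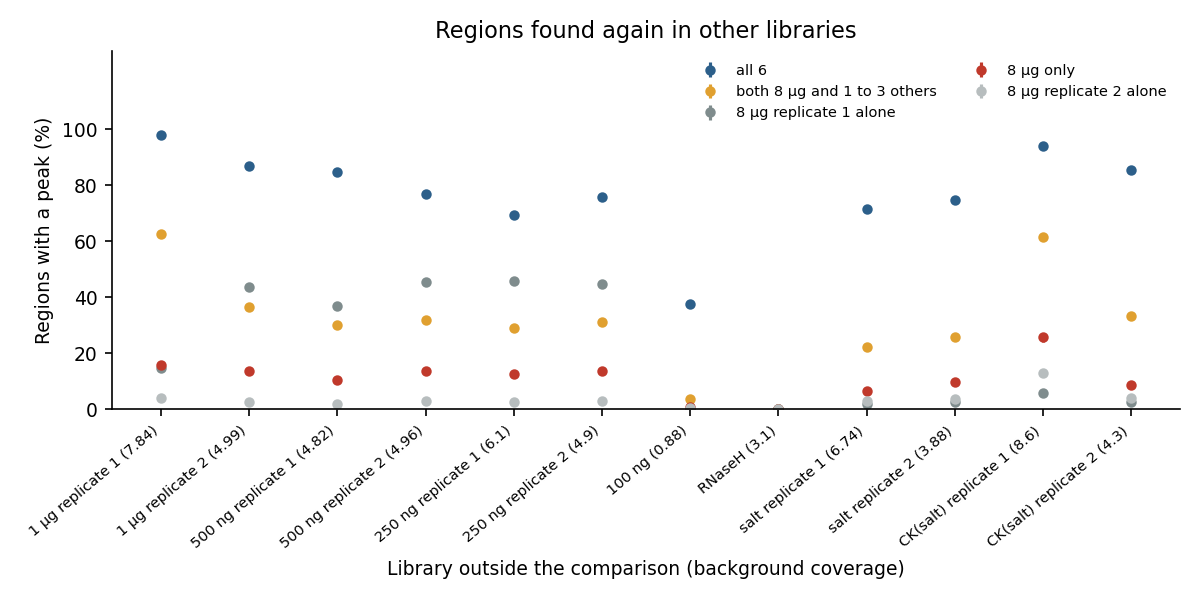
Share of regions with a peak (y axis, percent, with 95% exact intervals) in each of the 12 libraries outside the comparison (x axis, background coverage in brackets), by class of region. The 8 µg-only regions reach their highest share, 25.6%, in CK(salt) replicate 1, and the regions of 8 µg replicate 1 alone reach 37.0 to 45.7% in 1 µg replicate 2 and in the 500 and 250 ng libraries.

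Both libraries of 8 µg differed in what their private regions shared with other libraries. Regions that 8 µg replicate 1 alone held among the 6 lists had a peak in at least 1 of the 11 libraries in 64.8% of cases, more than the 57.4% of the 8 µg-only regions, whereas those of replicate 2 alone did in 27.1%. In 1 µg replicate 2 and the 4 libraries of 500 and 250 ng, the regions of replicate 1 alone were found in 37.0 to 45.7% of cases, and those of replicate 2 alone in 2.06 to 3.02%. The 8 µg-only regions lay between, at 10.6 to 13.8%. In CK(salt) replicate 1 the order differed, with 5.93% for replicate 1 alone, 12.8% for replicate 2 alone and 25.6% for the 8 µg-only regions.

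The regions of all 6 lists had larger median widths at 8 µg, but no single region passed the test. The width of a region in a library is the sum of its peaks there. The median width was 630 and 603 bp in the 8 µg libraries, 459 and 545 bp at 5 µg and 475 and 522 bp at 3 µg, so that both 8 µg medians lay above the other 4. Per region, the mean log2 width at 8 µg exceeded that at 5 and 3 µg by a median of 0.23, or 1.17-fold, and was higher at 34025 of the 36144 regions (94.1%). Between the replicates of 1 amount, the median absolute difference in log2 width was 0.15 at 8 µg, 0.26 at 5 µg and 0.25 at 3 µg. These are unsigned differences of single libraries, whereas the 0.23 is a signed difference of means, so their sizes are not directly comparable. The signed median of replicate 2 minus replicate 1 was 0.0097 at 8 µg, 0.18 at 5 µg and 0.11 at 3 µg. In the limma fit over all 36144 regions, 0 regions were wider and 0 narrower at an adjusted p under 0.05, and the lowest adjusted p was 0.236. At an unadjusted p under 0.05, 3301 regions (9.13%) were wider and 8 (0.0221%) narrower. With the replicate number as a block the adjusted counts were also 0 and 0, and the unadjusted ones 4734 and 14.

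Without a test, the widths can be counted by whether the groups overlapped. At 11061 regions (30.6% of the 36144) both 8 µg widths exceeded all 4 others, and at 43 (0.119%) both lay below all 4. The difference reached 1.5-fold or more at 2852 of the 11061 and 2-fold or more at 639. The count depends on the scale, because the 8 µg lists were wider as a whole. When each library's log2 widths were centred on their median over the shared regions, the mean log2 width at 8 µg was higher at 37.3% of regions, 1364 regions (3.77%) had both 8 µg widths above the others and 7210 (19.9%) had both below. Regions wider in absolute width thus made up 99.6% of the non-overlapping ones, and regions wider relative to their library 15.9%. Centring took away more than the typical difference of a region, whose median log2 value went from 0.23 to -0.077. The centred shares thus depend in part on this choice of centre and do not show that regions were narrower at 8 µg.

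**Figure D5:**
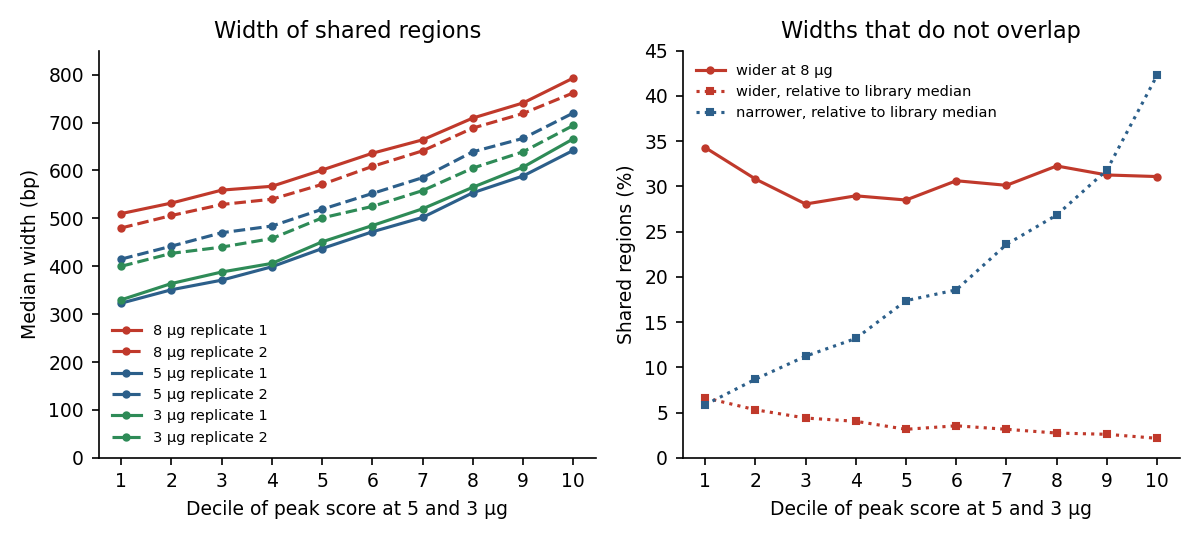
Median width (left, bp) of the regions of all 6 lists in each library and share of regions whose 8 µg widths do not overlap the other 4 (right, percent), by decile of the mean score percentile at 5 and 3 µg (x axes). The 8 µg lines lie above the others in every decile, and relative to the library median the share of regions below all 4 others rises from 5.86% in the weakest decile to 42.3% in the strongest.

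The difference in width was proportionally larger at weak shared regions than at strong ones, as a description without a test. The deciles rest on scores from the lists of 5 and 3 µg whose widths also enter the difference, so the division and the difference are not independent, and how much of the trend comes from this was not tested. In the weakest decile by score at 5 and 3 µg, the median widths were 510 and 480 bp at 8 µg and 323 to 415 bp in the other 4 lists, a median log2 difference of 0.36. In the strongest decile they were 793 and 762 bp against 642 to 720 bp, a median log2 difference of 0.13. The log2 difference was smaller in each decile than in the one before. The share of regions with both 8 µg widths above all 4 others changed little along the deciles, from 28.1 to 34.3%. Relative to the library medians, the share with both 8 µg widths below the others rose from 5.86% in the weakest to 42.3% in the strongest decile. By chromosome, the share of wider regions ran from 28.4% on chromosome 10 to 33.3% on chromosome 8.

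Taken over all regions, the added width was similar at the lower and the higher coordinate. These coordinates do not follow the strand of a gene, so similar medians do not mean that single regions widened evenly. Of the shared regions, 31379 had 1 peak in each of the 6 lists, and their 8 µg peaks reached a median of 27 bp further at the lower coordinate and 27.5 bp further at the higher one than the median of the other 4. Among the 9114 of these whose 8 µg widths exceeded all others, the extension was 44 and 44.5 bp. In that group both ends lay outside all 4 other peaks at 1235 regions (13.6%), the lower end alone at 2764 (30.3%), the higher end alone at 2718 (29.8%) and neither end at 2397 (26.3%).

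Most regions with the largest difference in width were single narrow peaks at 5 and 3 µg, with 1 peak in each of these lists at 6 of the first 10. They are named as a description, after their values were seen, since no region passed the test. On chromosome 11 from 4142034 to 4143150 the widths were 933 and 1115 bp at 8 µg, 258 and 269 bp at 5 µg and 342 and 222 bp at 3 µg. Every width at 8 µg was thus more than 2 times any of the others (log2 difference 1.92, SE 0.22, limma adjusted p = 0.236). On chromosome 2 from 4030463 to 4031773 the widths were 777 and 1239 bp at 8 µg, 218 and 242 bp at 5 µg and 300 and 292 bp at 3 µg (log2 difference 1.91, SE 0.23, limma adjusted p = 0.236). The third, on chromosome 7 from 18350052 to 18351719, was less even, with 1293 and 1668 bp at 8 µg, 214 and 736 bp at 5 µg and 284 and 776 bp at 3 µg. Replicate 1 was the narrower at both lower amounts there (log2 difference 1.77, SE 0.63, limma adjusted p = 0.536). In the opposite direction the differences were smaller. The largest was on chromosome 9 from 10319370 to 10320271, with 306 and 248 bp at 8 µg, 546 and 322 bp at 5 µg and 754 and 379 bp at 3 µg (log2 difference -0.78, SE 0.37, limma adjusted p = 0.557). On chromosome 3 from 30996316 to 30996987 the widths were 343 and 400 bp at 8 µg, 589 and 634 bp at 5 µg and 590 and 625 bp at 3 µg (log2 difference -0.72, SE 0.14, limma adjusted p = 0.302). It was the third in size of the 43, and its replicates lay close together.

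Division into several peaks was rarer at 8 µg than at 5 and 3 µg. A shared region had at least 2 peaks in 3.52 ± 0.0704% of cases at 8 µg (SD, n = 2) and in 5.78 ± 0.702% at 5 and 3 µg (SD, n = 4), and the 8 µg libraries, at 3.47% and 3.57%, lay below the lowest of the others, at 5.13% (two-sided exact permutation p = 0.133, adjusted p = 0.133). The smallest gap between peaks of a list was 198 and 227 bp at 8 µg and 196 to 215 bp in the other 4. A region was counted as split at 8 µg if it had 1 peak in each of the 4 other lists and at least 2 in each 8 µg list, which held for 28 of the 36144 regions (0.0775%). The opposite, 1 peak in each 8 µg list and at least 2 in each of the other 4, held for 84 (0.232%).

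At 25 of the 28 split regions the 8 µg libraries had a gap in common. Each of these gaps was bridged by a peak of some of the 4 other lists, and 0 by all 4. At the remaining 3 no common gap was found, so bridging could not be assessed. The widest common gap, 419 bp, was on chromosome 12 from 26448416 to 26449672. There the 8 µg libraries had 2 peaks each, adding to 758 and 789 bp, whereas replicate 1 of 5 and 3 µg had 1 peak of 1204 and 1191 bp and replicate 2 had 1 peak of 220 and 269 bp. Replicate 1 at both amounts thus bridged the gap and replicate 2 did not. On chromosome 5 from 18403216 to 18404175, with a gap of 302 bp, the 8 µg peaks added to 586 and 635 bp, and 1 other library, 3 µg replicate 2 with 792 bp, bridged it.

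For regions joined at 8 µg, only the 2 lists of 8 µg had to bridge the gap, so their count is not comparable with that of the split regions. At 65 of the 84, the single peak of each 8 µg library covered the whole gap that the other 4 lists had in common. At 10 only 1 of the 8 µg libraries did, and at 9 no common gap was found. These 84 regions lay on all 12 chromosomes and were wide, with median summed widths of 1387 and 1315.5 bp at 8 µg and 870 to 987 bp in the other 4 lists. Their scores were high in every list, with median percentiles of 82.4 and 80.4 at 8 µg and 76.2 to 78.3 in the others. On chromosome 9 from 9369661 to 9371271, where all 4 other lists lacked the same 333 bp, the 8 µg libraries had single peaks of 1566 and 1611 bp, and the others had 2 peaks each, adding to 869 and 1179 bp at 5 µg and 873 and 864 bp at 3 µg. On chromosome 7 from 11144324 to 11145538, with a common gap of 296 bp, the single peaks measured 1053 and 1059 bp, and the 2 peaks of each other list added to 690 to 738 bp. The 4 regions with wider common gaps, up to 667 bp, were bridged in 1 of the 8 µg libraries, with the first on chromosome 2 from 10083097 to 10084965, where replicate 1 had 1 peak of 1765 bp and replicate 2 1 of 912 bp. Left out 1 at a time, the libraries gave 129 to 270 joined and 33 to 196 split regions, with the most of both kinds without 8 µg replicate 2 (270 and 196) and, next, without 8 µg replicate 1 (214 and 130).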

How the data were processed

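Peak lists of 18 ISRH-seq libraries were used, 1 per library. The submitters' processing notes name Bowtie2 and MACS2 2.1.4. Build, control library and handling of duplicates are not given in the sources used here. The authors deposited start and end of each peak, a score (10 times the −log10 q-value), the fold over local background as a ratio, and a −log10 p-value and q-value. These values describe a peak within its own list. The lists carry no read counts, so depth was solved from the deposited fold and p-value of each summit (tolerance 0.0002 on the −log10 scale). 0 of the pairs among the 6 lists were identical.

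Peaks of the 6 lists that share at least 1 bp were joined into regions. Groups follow the titles. Log2 widths of shared regions were fitted with limma 3.58.1 (R 4.3.3), 8 µg minus the mean of 5 and 3 µg, with trend, 1 spread for the 3 amounts and Benjamini-Hochberg adjustment at 0.05. Single values were compared by exact permutation. Deviations of same-numbered replicates correlated over regions with r = 0.118 (8 and 5 µg), 0.149 (8 and 3 µg) and 0.357 (5 and 3 µg), so the replicate number was also used as a block. The regions named come from the ends of rankings, with some ranks passed over after the values were seen. The 8 µg-only regions were ranked by score, width and distance. Shared regions were ranked by width difference, and split and joined ones by common gap. Windows of 1 Mb with at least 50 regions were ranked by share. The rule for width also asked for the test, which 0 regions passed. Members and rules were chosen with earlier results of these data known. Genes and sequences were not analysed here.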

Additional observations from a re-analysis of the deposited data

How the results depend on the processing

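The median width of 8 µg-only regions, over the pooled widths of both libraries, was 249 to 286 bp in the alternatives tried. It kept within the spread between replicates, and the 249 bp is from replicate 1 alone, with 8 µg replicate 2 left out. In every alternative, 11 or 12 chromosomes had the genome-wide share in their interval. The intervals widen where fewer regions are counted, so this number is a weak check on placement. The number of 8 µg-only regions was 388 with equally long lists and 1517 without those near other peaks. It was 1936 to 2704 under the other list settings, and 2856 to 8796 with 1 library left out. The median distance to a shared region was 3507 bp at 50% reciprocal overlap, 3157 bp at a −log10 q of at least 5 in all lists, 3391.5 bp with a common minimum width of 226 bp and 2585 to 2955.5 bp with 1 library left out. Regions with both 8 µg widths above all others numbered 12913 to 19239 with 1 library left out and 1364 when centred on library medians. Regions split at 8 µg numbered 1 at 50% reciprocal overlap, a rule that keeps pieces apart by construction, 5 with equally long lists and 33 to 196 with 1 library left out. The limma fit gave 0 calls under all 18 alternatives, the replicate block included (0 wider, lowest adjusted p = 0.292). Joining gaps under 300 bp, chosen after seeing the data, gave 2310 8 µg-only, 19 split and 56 joined regions. The per-library differences kept their direction. Depth limits the comparison, as the lists hold no peak below a −log10 q of about 2 and a region missing from a shallower list may be present below that level.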

Other observations

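Of the 6184 regions held by 8 µg replicate 1 alone among the 6 lists, 2685 (43.4%) had a peak in at least 3 of 5 libraries (1 µg replicate 2 and both replicates of 500 and 250 ng), and 1905 (30.8%) had one in all 5. The 5 libraries were chosen after their values were seen. For regions of 8 µg replicate 2 alone these shares were 2.15% and 0.672%, and for the 8 µg-only regions 12% and 6.11%. Of the 2685 regions, 142 (5.29%) had a peak in any of the 4 salt and CK(salt) libraries, compared with 27.9% of the 297 8 µg-only regions found in at least 3 of the 5 libraries. The whole classes already differed in this, with 10.8% of all regions of replicate 1 alone and 38.1% of all 8 µg-only regions. The 2685 regions lay on all 12 chromosomes, where they made up 38.1 to 47.5% of the regions of replicate 1 alone. They were wider than the rest of their class, with a median of 291 bp against 231 bp in 8 µg replicate 1, and similar in score, with median percentiles of 10.5 and 12. The 297 8 µg-only regions found in at least 3 of the 5 libraries were likewise wider than the others, with 343 against 244 bp in the same library.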
